A study of Mus musculus with 4 samples.

Results

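The genes of fatty acid oxidation, ketone body handling and the tricarboxylic acid (TCA) cycle were followed in single cells of the mouse retinal pigment epithelium (RPE) and choroid. The list was fixed by gene symbol and holds 46 of the 32285 genes in the count matrices, 25 in a fatty acid oxidation block and 21 in a pyruvate and TCA block. Every one of the 46 symbols was found once. The groups were Vldlr-/- mice aged 1 month, wild-type (WT) mice aged 1 month, Vldlr-/- mice aged 2 months and WT mice aged 2 months. Vldlr encodes the very low density lipoprotein receptor, and its absence is a known mouse model of abnormal vessel growth under the retina. Each group was 1 droplet library made with the 10x Genomics system after the neural retina had been lifted off. The tissue was scraped, digested with collagenase, dispase and trypsin, and cleared of dead cells. The sources used here do not say how many mice went into a library.

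Fatty acids enter mitochondria as carnitine esters and are shortened in repeated rounds that yield acetyl-CoA, which the TCA cycle oxidises. The RPE takes up the lipid-rich tips of photoreceptors every day, and it is known to oxidise their fatty acids and to make ketone bodies from them. Pyruvate dehydrogenase supplies the same cycle from glucose and lactate.

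With 1 library per group no difference has a replicate check and no test was run. Levels are counts per 1000000 UMIs (CPM; a UMI is 1 counted molecule) of a cell class in a library, not corrected for gene length. Ratios are log2 CPM of knockout over WT with 0.5 counts added, and a log2 ratio of 0 means no difference. The 95% intervals are exact, conditional on the summed count, and cover counting error only.

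RPE-like cells numbered 164 in the knockout and 236 in WT at 1 month, and 607 in the knockout and 1455 in WT at 2 months. They held 370915 UMIs in knockout and 601774 UMIs in WT at 1 month, and 8076734 and 15726861 UMIs at 2 months. That was 9.09% of knockout and 15.3% of WT cells at 1 month, and 53.3% and 71.1% at 2 months. The class was named from 8 RPE markers, so their presence is no separate check of the label. Of these markers 7 of 8 were detected at 1 month (Best1 was at 0) and 8 of 8 at 2 months. Their summed level was 105933 CPM in knockout and 105566 CPM in WT at 1 month, and 62829 and 65497 CPM at 2 months. Vldlr itself had 4 UMIs in knockout and 78 in WT at 1 month, and 218 in knockout and 2788 in WT at 2 months. Which exons were removed is not stated in the sources used here, so these counts may come from outside the deletion. All 8 rod markers were detected in RPE-like cells of each library, at 590 CPM (knockout) and 278 CPM (WT) at 1 month and 33.4 and 52.4 CPM at 2 months, against at least 50510 CPM in rod-like cells. Of the 5 red blood cell markers, all but Alas2 were detected in RPE-like cells at 1 month, at 933 CPM in knockout and 533 CPM in WT, and all 5 at 2 months, at 27.9 and 436 CPM. Melanocyte markers, several of which pigmented epithelium also uses, were at 4338 CPM in knockout and 3277 CPM in WT at 1 month, and at 2 months at 2476 CPM in knockout and 2369 CPM in WT. Free RNA, estimated from the rod markers, was put at 5.60% (knockout) and 9.31% (WT) at 1 month and at 0.940% and 2.88% at 2 months. The estimate is the rod marker share of RPE-like UMIs over that of all barcodes of the library. Those barcodes include whole cells, so it depends on how many rod-like cells a library held. The all-barcode profile, RPE-like cells included, was subtracted in that proportion in an alternative calculation, and hemoglobin-rich barcodes were left out in another. The part of melanocyte RNA in the results was not tested. The kept barcodes of the libraries did not overlap except for 1 barcode in both knockout libraries.

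The RPE-like class was not of 1 kind in every library. At 1 month, 78.7% of knockout and 75.8% of WT RPE-like cells lay in 1 cluster of low depth, with medians of 1622 and 1855 UMIs. At 2 months a Malat1-rich cluster held 44.2% of the knockout and 19.4% of the WT RPE-like UMIs. Malat1, a long noncoding RNA kept in the nucleus, reached at least 1000 CPM in 27.8% of knockout and 11.3% of WT RPE-like cells at 2 months, and in 25% and 21.2% at 1 month. The 2-month results are therefore also given for cells on either side of 1000 CPM of Malat1.

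Promoter sequence is shown for Eci1 and Fh1, the members at or below 80% of the WT level at both ages. That rule took 2 of 37 members, with 2.18% of all genes. Etfb, the source of the most UMIs in the fatty acid block, is shown as well. Etfa, Acadm and the strip between Hadha and Hadhb are added as partners or as holders of searched motifs. RefSeq (GRCm38.p6) gave a promoter for 41 of the 46 members; Acaa2, Cpt1b, Decr1, Idh3a and Sdhc had none in that table. The 250 bases before each start were searched on both strands for AAGGTCA (estrogen-related receptors), GCGCATGC (NRF1), CCGGAAG (GABP), AAGATGG (YY1), CCAAT and GGGCGG (SP1). None of these strings contains another, although copies can touch. Capitals mark every copy of them, on either strand, and each sequence runs 5′ to 3′ toward its gene, ending before the first annotated base.
Eci1, chr17:24426433-24426640, plus strand: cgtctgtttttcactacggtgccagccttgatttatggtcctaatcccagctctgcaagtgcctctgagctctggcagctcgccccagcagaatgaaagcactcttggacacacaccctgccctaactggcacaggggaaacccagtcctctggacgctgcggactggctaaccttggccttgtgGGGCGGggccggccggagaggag
Fh1, chr1:175625636-175625885, minus strand: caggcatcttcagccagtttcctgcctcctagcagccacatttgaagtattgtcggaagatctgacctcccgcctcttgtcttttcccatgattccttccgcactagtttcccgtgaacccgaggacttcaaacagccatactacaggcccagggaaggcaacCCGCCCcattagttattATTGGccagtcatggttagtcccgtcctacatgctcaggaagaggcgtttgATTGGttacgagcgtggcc
Etfb, chr7:43443822-43444071, plus strand: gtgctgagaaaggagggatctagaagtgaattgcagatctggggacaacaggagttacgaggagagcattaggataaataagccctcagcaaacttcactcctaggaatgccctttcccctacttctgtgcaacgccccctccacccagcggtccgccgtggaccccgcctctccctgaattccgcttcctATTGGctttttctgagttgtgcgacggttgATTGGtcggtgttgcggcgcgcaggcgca
Etfa, chr9:55512244-55512493, minus strand: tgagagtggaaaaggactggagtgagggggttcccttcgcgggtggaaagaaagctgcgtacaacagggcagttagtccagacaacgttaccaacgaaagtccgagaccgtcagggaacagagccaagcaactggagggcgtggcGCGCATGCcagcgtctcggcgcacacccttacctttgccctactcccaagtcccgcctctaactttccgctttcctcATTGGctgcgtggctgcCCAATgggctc
Acadm, chr3:153944644-153944893, minus strand: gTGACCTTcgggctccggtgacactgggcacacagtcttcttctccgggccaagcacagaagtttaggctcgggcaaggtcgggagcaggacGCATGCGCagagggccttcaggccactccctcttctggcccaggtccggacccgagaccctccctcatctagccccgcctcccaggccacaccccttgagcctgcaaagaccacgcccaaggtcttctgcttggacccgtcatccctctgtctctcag
Hadha side of the Hadha and Hadhb strip, chr5:30155163-30155230, minus strand: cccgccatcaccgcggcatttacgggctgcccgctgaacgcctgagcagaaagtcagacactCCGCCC

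The Eci1 stretch held 1 SP1 string, that of Fh1 held 2 CCAAT strings and 1 SP1 string, and that of Etfb 2 CCAAT strings. The NRF1 string stood in 5 of 41 members (12.2%; Acadm, Etfa, Etfdh, Ogdh and Sdhb), against 2.56% of 27025 genes. Only in Acadm and Etfa did it lie before the first annotated base. In Etfdh, Ogdh and Sdhb it lay inside the annotated gene, downstream of that base. A gene with several starts was counted if any start held a string, for members and all genes alike. Copies inside genes were not separated for the shares given here. SP1 stood in 28 members (68.3%, against 35.4% of all genes) and CCAAT in 21 (51.2%, against 37.5%). GABP was found in 4 members (9.76%, against 7.83%), YY1 in 2 (4.88%, against 5.18%) and the receptor string in Acadm alone (2.44%, against 4.70%). A match is only a run of letters, and the compared genes include many of other kinds. Hadha and Hadhb, which encode the 2 subunits of the mitochondrial trifunctional protein, start back to back in opposite directions. Eci1 lies on chromosome 17 from 24426641 to 24439348 (plus strand), Fh1 on chromosome 1 from 175600374 to 175625635 (minus strand) and Etfb on chromosome 7 from 43444083 to 43457800 (plus strand), all protein-coding genes of GENCODE M21 on GRCm38.

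RPE-like cells stood above the other classes in the fatty acid block. Its summed level in RPE-like cells was 2478 CPM in knockout and 3355 CPM in WT at 1 month, and 2434 CPM in knockout and 2737 CPM in WT at 2 months. In fibroblast-like cells the 4 libraries lay between 1204 and 1324 CPM, in rod-like cells between 1114 and 1202 CPM and in macrophage-like cells between 886 and 918 CPM. T or NK-like and B-like cells, measured at 1 month only, were lower still, at 736 and 660 CPM in knockout and 795 and 720 CPM in WT. RPE-like cells were the class with the highest level for 19 of the 46 members in the knockout and 23 in WT at 1 month, and for 17 and 19 at 2 months, among 6 classes with enough cells at each age. Rod-like cells were highest for 17 members in the knockout and 12 in WT at 1 month, and for 10 and 11 at 2 months. Mural-like cells were highest for 12 in the knockout and 10 in WT at 2 months. The share over all genes was not computed for these counts, so they are descriptions only. The TCA block sum did not set RPE-like cells apart as the fatty acid block sum did. RPE-like cells had 1766 CPM in knockout and 2090 CPM in WT at 1 month, and 1514 CPM in knockout and 1700 CPM in WT at 2 months, while mural-like cells, which wrap small vessels, had 1766 CPM in knockout and 1787 CPM in WT at 2 months. Rod-like cells had 1686 CPM in knockout and 1822 CPM in WT at 1 month.

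**Figure D1:**
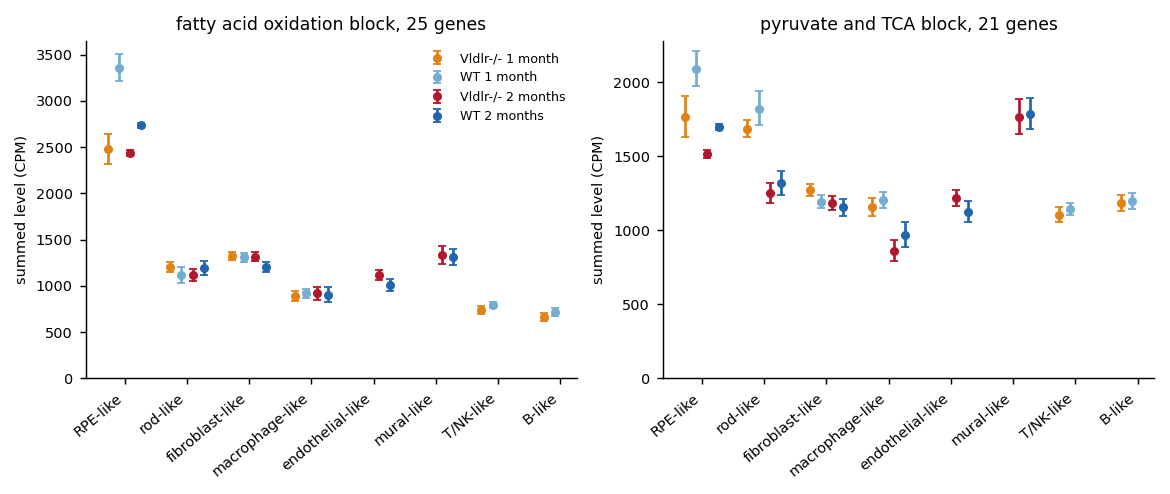
Summed CPM of the 25 fatty acid oxidation genes (left) and the 21 pyruvate and TCA genes (right) by cell class, with 1 point per library and exact Poisson 95% intervals; classes with under 30 cells in a library are left out. For the fatty acid genes the 4 RPE-like points, from 2434 to 3355 CPM, lie above every point of the other classes, while for the TCA genes they overlap rod-like and mural-like points.

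Etfb and Eci1 supplied much of that level. Etfb encodes a subunit of the electron transfer flavoprotein, which takes electrons from the acyl-CoA dehydrogenases. Eci1 encodes an enoyl-CoA isomerase that handles double bonds of unsaturated fatty acids. Together they made up 43.3% of the block's UMIs in knockout and 42.6% in WT at 1 month, and 37.3% and 40.9% at 2 months. Etfb ranged from 554 to 826 CPM over the RPE-like libraries, against 130 to 154 CPM in fibroblast-like and 29.9 to 62.3 CPM in rod-like cells. Eci1 ranged from 355 to 603 CPM in RPE-like cells, against 47.6 to 65.0 CPM in fibroblast-like and 48.6 to 64.2 CPM in rod-like cells. The ranges of RPE-like and other classes did not overlap for either gene.

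Members were counted where both classes together had at least 30 UMIs in each library. Of 42 such members, 23 were above fibroblast-like cells in all 4 libraries, where 18% of all genes tested were. Against macrophage-like cells the count was 24 of 39 members, with 27.5% of all genes. Against rod-like cells it was 21 of 36, with 28.8% of all genes, and 11 members were below rod-like cells in all 4 libraries, with 50.8% of all genes. Those below rods were Cpt1a, Acsl1, Acadm, Pdhb, Dlat, Dld, Idh3b, Idh3g, Ogdh, Sdha and Mdh2. The classes were clustered without the 46 members and 79 related genes, but they come from the same cells, so these counts are descriptions.

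Rod-like cells had a partly different set of dehydrogenases. Acadl, the long-chain acyl-CoA dehydrogenase, was at 154 to 239 CPM in RPE-like and 0 to 12.5 CPM in rod-like cells. Acadm, its medium-chain relative, was at 45.8 to 106 CPM in RPE-like and 156 to 173 CPM in rod-like cells. Acsl1, which activates long-chain fatty acids, showed 18.9 to 42.5 CPM in RPE-like and 148 to 231 CPM in rod-like cells. Suclg2, the GTP-forming subunit of succinyl-CoA ligase, had 68.1 to 105 CPM in RPE-like and 0 to 6.23 CPM in rod-like cells. Thus each of these 4 genes separated the 2 classes without overlap, in opposite directions.

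Among the rarer members, Pcx, pyruvate carboxylase, which refills the cycle with oxaloacetate, was at 28.2 to 52.2 CPM in RPE-like cells and at most 11.2 CPM in any other class and library. Cpt1a, the carnitine palmitoyltransferase at the mitochondrial entry point in most tissues, was at 48.2 to 95.5 CPM in RPE-like cells, and Cpt1c, the brain form, was at 2.70 to 9.78 CPM in RPE-like and 17.0 to 46.7 CPM in fibroblast-like cells. Cpt1b, the muscle form, had 0 UMIs in both 1-month libraries and 1 UMI in each 2-month library of RPE-like cells. The exact upper limits of those 0 counts were 9.95 CPM in knockout and 6.13 CPM in WT. Idh2, the NADP-dependent isocitrate dehydrogenase of mitochondria, was highest in mural-like cells, at 146 CPM in knockout and 131 CPM in WT.

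**Figure D2:**
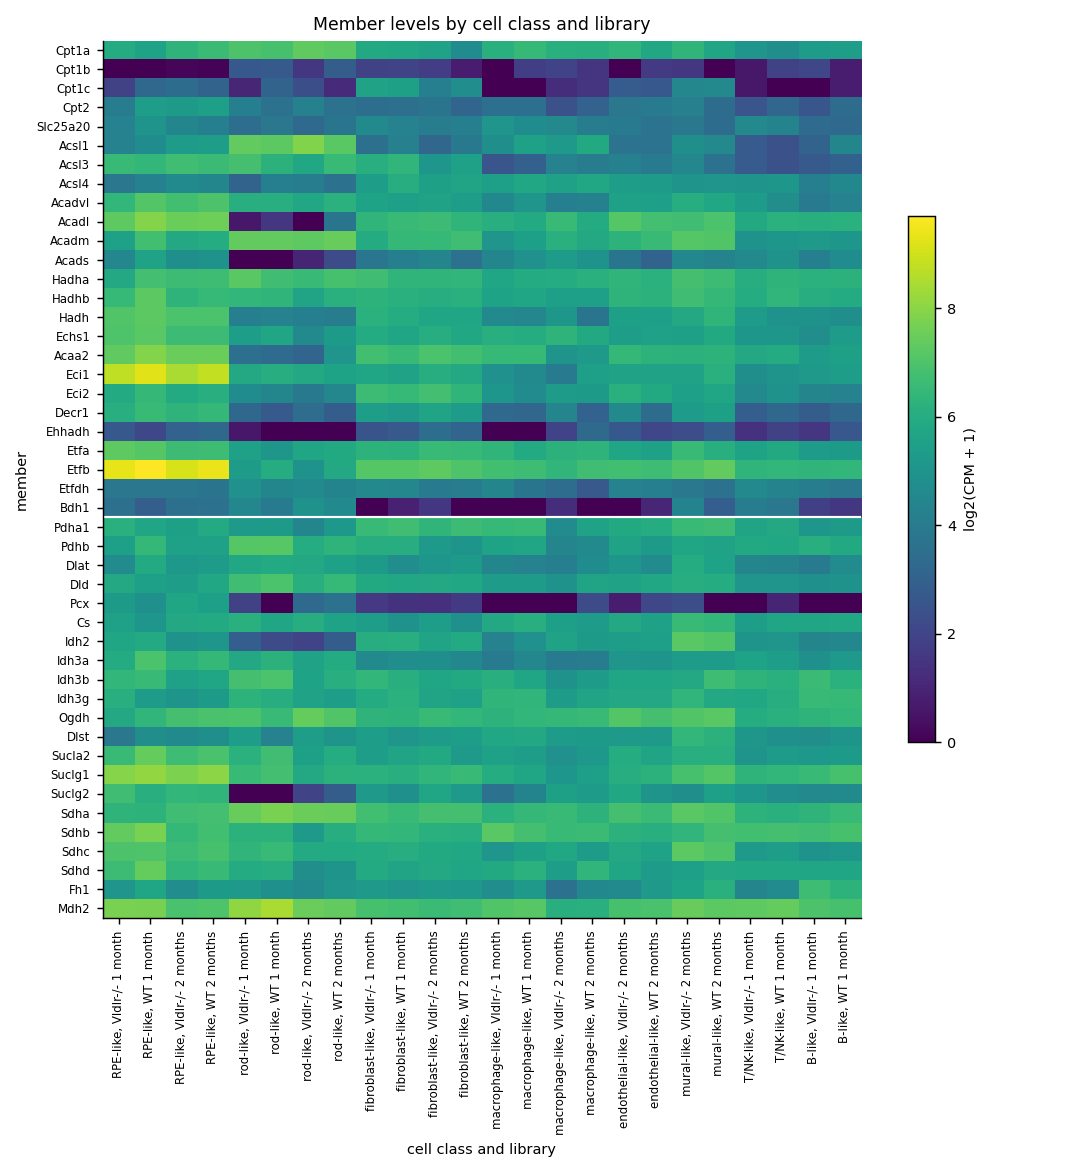
Level of each of the 46 members as log2(CPM + 1), by cell class and library, with the knockout column before its WT column; the white line parts the fatty acid block above from the TCA block below. Etfb and Eci1 are brightest in the 4 RPE-like columns, from 355 to 826 CPM, Pcx is dark outside them, and Acadl, Acads and Suclg2 are dark in rod-like columns.

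The comparison of genotypes asked whether these genes differed in RPE-like cells lacking Vldlr. The fatty acid block was at 73.8% of the WT level in knockout RPE-like cells at 1 month (2478 against 3355 CPM, log2 ratio -0.44, interval -0.55 to -0.32) and at 89.0% at 2 months (2434 against 2737 CPM, log2 ratio -0.17, -0.19 to -0.14). The TCA block was at 84.5% at 1 month (1766 against 2090 CPM, log2 ratio -0.24, -0.38 to -0.11) and at 89.0% at 2 months (1514 against 1700 CPM, log2 ratio -0.17, -0.20 to -0.14). The median log2 ratio over all genes tested was -0.0045 at 1 month and 0.07 at 2 months. Under a trimmed-mean scaling, which moved ratios down by 0.11 at both ages, the 2-month values were -0.28 for either block.

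Of the 37 members with at least 30 UMIs at 1 month, 26 were lower in the knockout, while 50.3% of all 3633 genes tested were. At 2 months 37 of 45 were lower, while 40.6% of all 11856 genes tested were. The fatty acid block gave 14 of 17 and 19 of 24 of these, and the TCA block 12 of 20 and 18 of 21. The 2-month share over all genes depended on the processing. It was 55.9% under trimmed-mean scaling, 57.5% with the mix of RPE-like clusters held fixed, 50.8% thinned to 1000 UMIs per cell and 49% as a mean over cells. Over all settings the number of members lower at 2 months lay between 28 and 40. At or below 80% of the WT level were 20 members at 1 month (21.9% of all genes) and 4 at 2 months (8.31% of all genes), namely Eci1, Fh1, Pdha1 and Dld. At or above 125% of it were 7 at 1 month (26.1% of all genes) and 1, Cpt1c, at 2 months (23.2% of all genes). By count, the fatty acid block thus leaned to lower values at both ages. For the TCA block this held at 2 months, while its 12 of 20 at 1 month was near the share of all genes. The 7 members at or above 125% at 1 month were Cpt1a and the TCA block genes Pdha1, Dld, Pcx, Cs, Idh3g and Suclg2. Differences at 2 months were small.

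Both ages gave values for 37 members. Of these 25 were lower at both ages, with 30.9% of all genes, and Acsl3, Pcx and Suclg2 were higher at both, with 26% of all genes. At or below 80% at both ages were Eci1 and Fh1 (2 of 37, with 2.18% of all genes), and at or above 125% at both there were 0 members (3.74% of all genes). The 9 members with too few UMIs at 1 month were Cpt1b, Cpt1c, Slc25a20, Acsl1, Acsl4, Ehhadh, Etfdh, Bdh1 and Dlst, and Cpt1b was too low at 2 months as well. Age came with another Cell Ranger version and another depth, so the ages cannot be told apart from those.

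**Figure D3:**
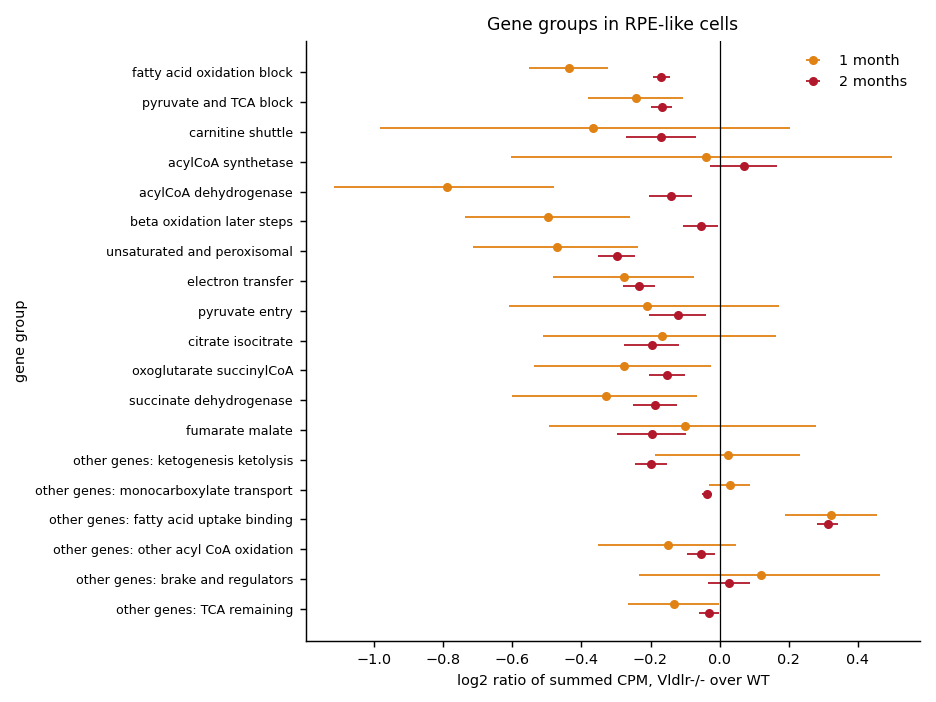
Log2 ratio of summed CPM, knockout over WT, in RPE-like cells for both blocks, for the roles within them and for 6 lists of related genes, at 1 month (orange) and 2 months (red), with intervals for counting error. The acyl-CoA dehydrogenases lie furthest left at 1 month (-0.79), and fatty acid uptake and binding genes lie to the right at both ages (0.32 and 0.31).

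The genes of entry into mitochondria did not share a direction. The carnitine shuttle sum was at 99.8 CPM in knockout and 130 CPM in WT at 1 month (-0.37, -0.98 to 0.20) and at 146 and 164 CPM at 2 months (-0.17, -0.27 to -0.07). Cpt1a was at 62.0 CPM in knockout and 48.2 CPM in WT at 1 month (0.37, -0.49 to 1.2), and at 77.1 and 95.5 CPM at 2 months (-0.31, -0.45 to -0.17). Its direction therefore differed between the ages, and the 1-month interval includes 0. Cpt1c, at 9.78 CPM in knockout and 7.50 CPM in WT at 2 months, had a ratio of 0.39 (-0.05 to 0.81). Cpt2, which releases the fatty acid inside, was at -1.27 (-2.94 to -0.04) at 1 month and -0.20 (-0.40 to -0.0021) at 2 months. Slc25a20, the carnitine carrier of the inner membrane, was at 0.27 at 2 months (-0.02 to 0.55).

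Of the synthetases that attach coenzyme A, Acsl3 was at 91.7 CPM in knockout and 84.7 CPM in WT at 1 month (0.12, -0.56 to 0.77), and at 104 and 96.8 CPM at 2 months (0.10, -0.02 to 0.23). The 2-month ratios of Acsl1 and Acsl4 were -0.08 and 0.20. All 3 intervals at 2 months include 0.

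The 4 acyl-CoA dehydrogenases among the members, which begin each round, were all lower in the knockout at both ages, with 30.9% of all genes. Others of this enzyme family, given below with the related genes, went both ways at 2 months. Their sum was at 305 CPM in knockout and 528 CPM in WT at 1 month (-0.79, -1.12 to -0.48), and at 370 and 409 CPM at 2 months (-0.14, -0.21 to -0.08). Acadvl, the very long-chain enzyme, was at 83.6 CPM in knockout and 136 CPM in WT at 1 month (-0.69, -1.35 to -0.09), and at 106 and 127 CPM at 2 months (-0.26, -0.37 to -0.14). Acadl was at 154 CPM in knockout and 239 CPM in WT at 1 month (-0.63, -1.11 to -0.19). At 2 months the Acadl values were 180 and 188 CPM (-0.06, -0.16 to 0.03). Acadm and Acads were at -1.18 (-2.08 to -0.43) and -1.05 (-2.45 to 0.06) at 1 month. At 2 months they were at -0.16 (-0.32 to 0.0017) and -0.13 (-0.37 to 0.10). In Malat1-rich cells at 2 months Acads was at 0.29 (-0.12 to 0.71) and Acadvl at 0.03 (-0.18 to 0.25), while Acadl and Acadm stayed below 0.

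The later steps of the round showed the same 1-month pattern. All 5 genes were lower at 1 month, with a sum of 566 CPM in knockout and 799 CPM in WT (-0.50, -0.74 to -0.26), while at 2 months the sums were 573 and 595 CPM (-0.05, -0.11 to -0.0035). Hadhb was at 89.0 CPM in knockout and 153 CPM in WT at 1 month (-0.77, -1.40 to -0.19), and at 77.8 and 89.3 CPM at 2 months (-0.20, -0.34 to -0.06). Its partner Hadha was at -0.95 (-1.76 to -0.25) and -0.05 (-0.17 to 0.07). Acaa2, the thiolase that releases acetyl-CoA, was at 159 CPM in knockout and 239 CPM in WT at 1 month (-0.58, -1.05 to -0.14), and at 176 and 181 CPM at 2 months (-0.04, -0.14 to 0.05). Its 1-month ratio was 0.06 in barcodes of at least 1000 genes, which left 53 knockout and 78 WT cells. Hadh and Echs1, a dehydrogenase and a hydratase of the same round, were each at -0.17 at 1 month and at -0.02 and -0.0013 at 2 months.

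Eci1 and Etfb had the highest UMI counts and the narrowest intervals. Eci1 gave 161 UMIs (434 CPM) in knockout and 363 UMIs (603 CPM) in WT at 1 month (-0.47, -0.75 to -0.20), and 2867 UMIs (355 CPM) and 7063 UMIs (449 CPM) at 2 months (-0.34, -0.40 to -0.28). Etfb gave 237 UMIs (639 CPM) in knockout and 497 UMIs (826 CPM) in WT at 1 month (-0.37, -0.60 to -0.14), and 4474 UMIs (554 CPM) and 10529 UMIs (669 CPM) at 2 months (-0.27, -0.32 to -0.22). Both genes were lower in the knockout at each age, though the 2-month Etfb ratio lay below that of either Malat1 stratum given below. Without this pair the fatty acid block was at -0.45 (-0.61 to -0.30) at 1 month and at -0.09 (-0.12 to -0.05) at 2 months (1526 CPM in knockout and 1618 CPM in WT). The 2-month difference was thus smaller without these 2 genes. Eci2 and Decr1, which also serve unsaturated fatty acids, were at -0.52 (-1.33 to 0.20) and -0.45 (-1.21 to 0.24) at 1 month. At 2 months they were at -0.21 (-0.37 to -0.05) and -0.17 (-0.31 to -0.03). Ehhadh, a peroxisomal enzyme, was at -0.21 at 2 months. Etfa, the other flavoprotein subunit, was at 0.16 and -0.03, and Etfdh, which passes the electrons to ubiquinone, at 0.13 at 2 months. The intervals of these 3 genes include 0. Bdh1, which interconverts the ketone bodies acetoacetate and hydroxybutyrate, had 4 UMIs in each 1-month library, and at 2 months it was at 11.02 CPM in knockout and 11.7 CPM in WT (-0.08, -0.47 to 0.29).

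**Figure D4:**
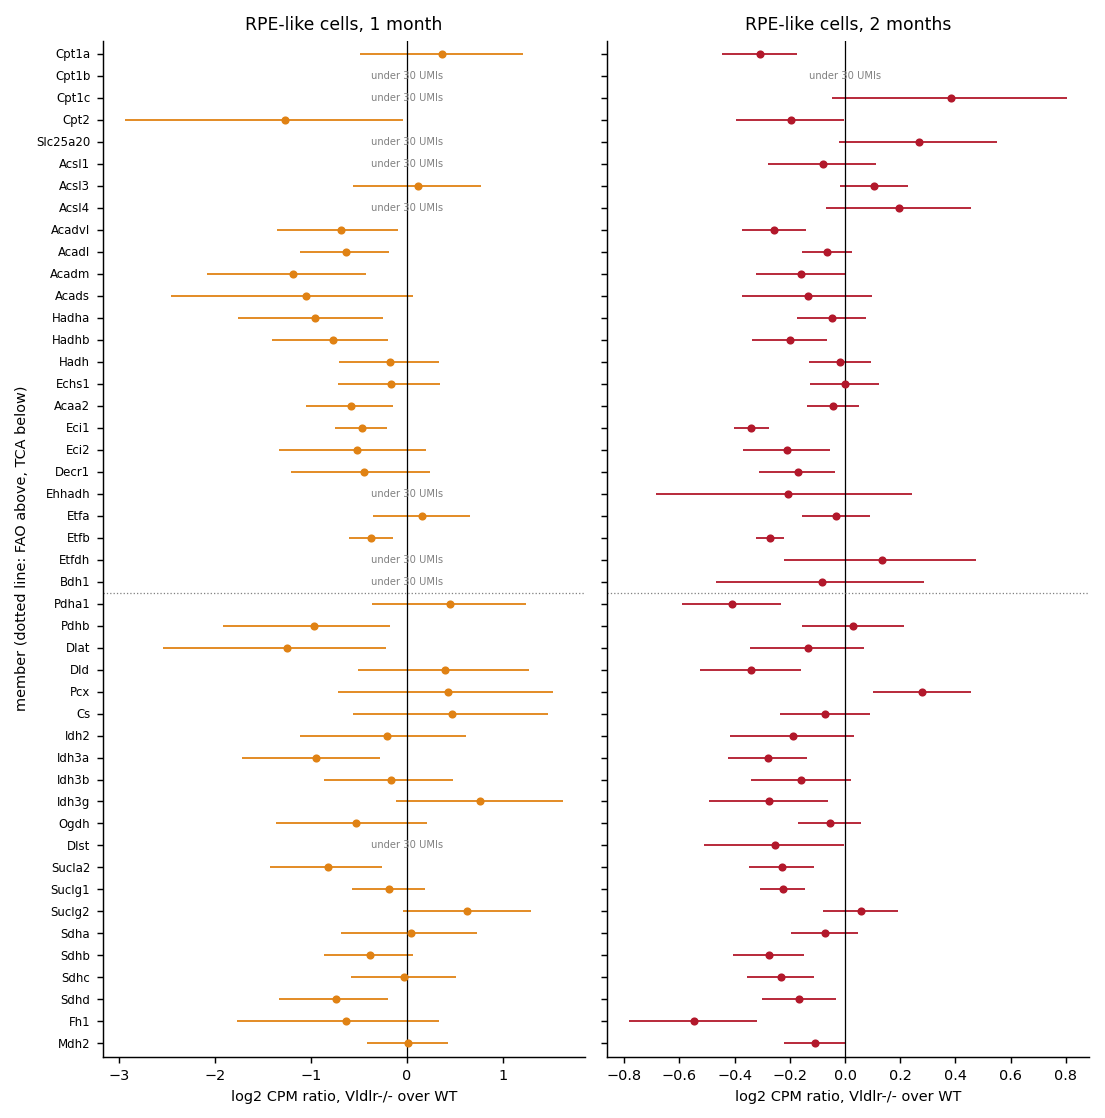
Log2 CPM ratio, knockout over WT, of each member in RPE-like cells at 1 month (left) and 2 months (right), with exact 95% intervals for counting error; the panels have different scales, and members with under 30 UMIs carry no point. Most points lie left of 0 at both ages, intervals are wide at 1 month, and Fh1 (-0.55) lies furthest left at 2 months.

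Pyruvate dehydrogenase, which turns pyruvate into acetyl-CoA, gave mixed values at 1 month. Pdha1, its X-linked catalytic subunit, was at 70.1 CPM in knockout and 51.5 CPM in WT at 1 month (0.45, -0.37 to 1.24), and at 44.6 and 59.2 CPM at 2 months (-0.41, -0.59 to -0.23). Dld, the shared dehydrogenase subunit, was at 56.6 CPM in knockout and 43.2 CPM in WT at 1 month (0.40, -0.51 to 1.28), and at 42.7 and 54.1 CPM at 2 months (-0.34, -0.53 to -0.16). Pdhb, the other subunit of the first component, had ratios of -0.97 at 1 month and 0.03 at 2 months. Dlat, the acetyltransferase, lay below WT at both ages, at -1.24 and -0.13. Pcx stood above WT at each age, at 0.43 (-0.71 to 1.53) and 0.28 (0.10 to 0.46). Split by Malat1, its 2-month ratio was 0.16 (-0.10 to 0.42) in Malat1-poor cells and -0.13 (-0.39 to 0.13) in Malat1-rich cells.

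In the first part of the cycle, Idh3a, the catalytic subunit of the NAD-dependent isocitrate dehydrogenase, was at 62.0 CPM in knockout and 121 CPM in WT at 1 month (-0.95, -1.71 to -0.27). At 2 months Idh3a was at 71.6 and 86.9 CPM (-0.28, -0.42 to -0.14). Citrate synthase (Cs) was at 0.47 and -0.07, and both intervals include 0. Idh3g had ratios of 0.76 and -0.27 at the younger and older age, and in Malat1-rich cells at 2 months its ratio was 0.22. Idh3b and Idh2 stayed between -0.21 and -0.16 at both ages. The citrate and isocitrate sum was at -0.17 (-0.51 to 0.16) and -0.20 (-0.28 to -0.12).

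Succinyl-CoA ligase forms ATP or GTP in the middle of the cycle. Its shared subunit Suclg1 was at 245 CPM in knockout and 279 CPM in WT at 1 month (-0.18, -0.57 to 0.19), and at 218 and 255 CPM at 2 months (-0.23, -0.31 to -0.14). Sucla2, the ATP-forming subunit, was at 94.4 CPM in knockout and 168 CPM in WT at 1 month (-0.82, -1.43 to -0.26), and at 102 and 119 CPM at 2 months (-0.23, -0.35 to -0.11). Suclg2, its GTP-forming counterpart, was at 0.63 (-0.04 to 1.29) and 0.06 (-0.08 to 0.19). At 2 months Suclg2 went opposite ways by Malat1, at 0.20 (0.02 to 0.38) in Malat1-poor and -0.42 (-0.64 to -0.21) in Malat1-rich cells. Ogdh was at -0.53 and -0.06 with intervals that include 0, and Dlst, under 30 UMIs at 1 month, was at -0.25 at 2 months.

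Succinate dehydrogenase, which belongs to both the cycle and the respiratory chain, was lower as a sum, at -0.33 (-0.60 to -0.06) and -0.19 (-0.25 to -0.12). Sdhb, its iron-sulfur subunit, was at 162 CPM in knockout and 213 CPM in WT at 1 month (-0.39, -0.86 to 0.06), and at 87.8 and 106 CPM at 2 months (-0.28, -0.41 to -0.15). Sdhd, a membrane anchor, was at 99.8 CPM in knockout and 168 CPM in WT at 1 month (-0.74, -1.34 to -0.19), and at 81.8 and 91.9 CPM at 2 months (-0.17, -0.30 to -0.03). Thinned to 1000 UMIs per cell, Sdhd was at 0.039 at 2 months. Sdhc was at -0.03 and -0.23, and the flavoprotein subunit Sdha at 0.04 and -0.07.

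Fh1 encodes fumarate hydratase, the enzyme after succinate dehydrogenase. It gave 12 UMIs (32.4 CPM) in knockout and 31 UMIs (51.5 CPM) in WT at 1 month (-0.64, -1.77 to 0.33), and 209 UMIs (25.9 CPM) and 595 UMIs (37.8 CPM) at 2 months (-0.55, -0.78 to -0.32). Thinned to 1000 UMIs per cell, its 2-month ratio was 0.085. Mdh2, malate dehydrogenase, was at 210 CPM in knockout and 209 CPM in WT at 1 month (0.0098, -0.42 to 0.42), and at 118 and 128 CPM at 2 months (-0.11, -0.22 to 0.0040).

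The 2-month values differed by Malat1. In Malat1-poor RPE-like cells, 438 in knockout and 1290 in WT, the fatty acid block was at 2488 CPM in knockout and 2834 CPM in WT (-0.19, -0.22 to -0.16) and the TCA block at 1458 and 1693 CPM (-0.22, -0.26 to -0.18). There 37 of 45 members were lower, with 56% of all genes. In Malat1-rich cells, 169 in knockout and 165 in WT, the fatty acid block was at 2373 CPM in knockout and 2365 CPM in WT (0.0048, -0.04 to 0.05) and the TCA block at 1578 and 1727 CPM (-0.13, -0.18 to -0.08). There 28 of 45 members were lower, 12 of 24 in the fatty acid block and 16 of 21 in the TCA block, with 50.5% of all genes. The difference between the strata was not tested.

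Single members followed the strata unequally. Etfb was at -0.18 (-0.25 to -0.12) in Malat1-poor and -0.0086 (-0.11 to 0.09) in Malat1-rich cells, and Eci1 at -0.44 (-0.52 to -0.36) and -0.10 (-0.21 to 0.0065). The Etfb ratio over all RPE-like cells, -0.27, lay below both of its strata, whose shares of the cells differed between the genotypes. Suclg1 was at -0.35 and 0.13, and Acadvl at -0.28 and 0.03. Acaa2 and Suclg2 had opposite directions with both intervals off 0: Acaa2 was at -0.18 (-0.30 to -0.06) in Malat1-poor and 0.23 (0.06 to 0.39) in Malat1-rich cells, and Suclg2 had the reverse order. Ogdh was at 0.07 (-0.08 to 0.22) and -0.43 (-0.62 to -0.24), and Acsl3 at 0.06 (-0.10 to 0.21) and 0.50 (0.26 to 0.75). Eci2 was at -0.28 and 0.03. Fh1 was at -0.49 (-0.80 to -0.20) and -0.71 (-1.10 to -0.32), Pdha1 at -0.38 and -0.47, and Cpt1a at -0.38 and -0.35. Fh1, Pdha1 and Cpt1a had an interval below 0 in both strata.

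**Figure D5:**
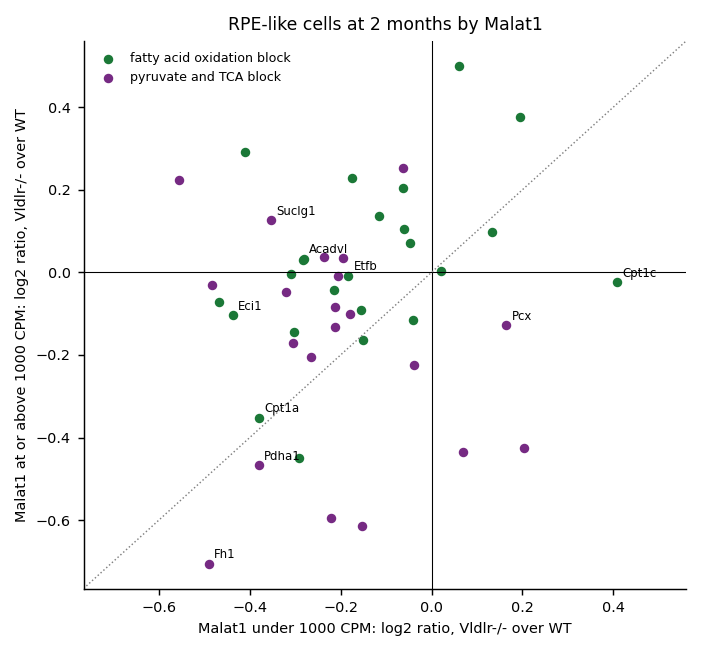
Log2 CPM ratio of each member, knockout over WT, at 2 months in Malat1-poor RPE-like cells (horizontal) against Malat1-rich ones (vertical), for members with at least 30 UMIs in both; the dotted line marks equal ratios. Fh1, Pdha1 and Cpt1a are below 0 on both axes, whereas Eci1, Etfb and Acadvl are further below 0 on the horizontal axis.

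Genes of the same pathways outside the 46 were counted from lists of 79 genes, beside shares of 50.3% lower at 1 month and 40.6% at 2 months over all genes tested. Of the 79, 18 of 36 were lower at 1 month and 33 of 73 at 2 months. Of the 22 other acyl-CoA oxidation genes, 8 of 11 with enough UMIs were lower at 1 month and 7 of 21 at 2 months. Acadsb, which oxidises short branched acyl-CoA from isoleucine, had 2 UMIs (5.39 CPM) in knockout and 29 UMIs (48.2 CPM) in WT at 1 month (-2.86, -6.27 to -1.18), and 77 UMIs (9.53 CPM) and 969 UMIs (61.6 CPM) at 2 months (-2.68, -3.05 to -2.36). Of the other acyl-CoA dehydrogenases in this list, Acad10 was at 0.71 (0.41 to 1.01) and Acad12 at 0.54 (0.09 to 0.98) at 2 months. Acad9 was at 0.06, Ivd at -0.01, Acad8 at -0.12 and Acad11 at -0.25 (-0.39 to -0.11) at that age. The furthest of the 46 members was Cpt2, at -1.27 at 1 month.

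Ketogenesis and ketone use had 1 of 4 genes lower at 1 month and 5 of 6 at 2 months. Oxct1, which activates ketone bodies for use, was at 83.6 CPM in knockout and 68.1 CPM in WT at 1 month (0.30, -0.43 to 1.0032), and at 55.7 and 86.5 CPM at 2 months (-0.63, -0.79 to -0.48). The list's sum was at 0.03 (-0.19 to 0.23) and -0.20 (-0.25 to -0.15).

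Lactate and ketone body transporters gave no shared direction, with 1 of 4 lower at 1 month and 2 of 4 at 2 months. Bsg, the partner protein of these transporters, was at 6527 CPM in knockout and 6689 CPM in WT at 1 month (-0.04, -0.11 to 0.04), and at 4530 and 4563 CPM at 2 months (-0.01, -0.03 to 0.01). Slc16a8, the RPE lactate transporter, was at 0.01 at both ages. Slc16a1 was at 941 CPM in knockout and 653 CPM in WT at 1 month (0.53, 0.31 to 0.74), and at 709 and 881 CPM at 2 months (-0.31, -0.36 to -0.27). In Malat1-rich cells at 2 months its ratio was 0.33.

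The fatty acid uptake and binding list was higher as a sum, at 2208 CPM in knockout and 1765 CPM in WT at 1 month (0.32, 0.19 to 0.46), and at 1740 and 1402 CPM at 2 months (0.31, 0.28 to 0.34). By count, 2 of 3 genes were higher at 1 month and 4 of 5 at 2 months. Most of it was Dbi, the acyl-CoA binding protein, at 2052 CPM in knockout and 1632 CPM in WT at 1 month (0.33, 0.19 to 0.47), and at 1583 and 1240 CPM at 2 months (0.35, 0.32 to 0.38). Brakes and regulators were lower in 1 of 3 genes at 1 month and 8 of 20 at 2 months. Pdk2, a kinase that switches off pyruvate dehydrogenase, was at 67.4 CPM in knockout and 59.8 CPM in WT at 1 month (0.18, -0.63 to 0.95), and at 69.3 and 73.3 CPM at 2 months (-0.08, -0.23 to 0.07).

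Of the remaining cycle and shuttle genes, 6 of 11 were lower at 1 month and 10 of 17 at 2 months. Mdh1, the cytosolic malate dehydrogenase, was at 623 CPM in knockout and 779 CPM in WT at 1 month (-0.32, -0.56 to -0.09), and at 429 and 436 CPM at 2 months (-0.02, -0.08 to 0.04). Mpc1, a subunit of the pyruvate carrier, was at -0.53 and -0.12. Both genes had ratios below 0 at each age. Me1 of the same list stood above 0 at each age, at 0.63 (0.23 to 1.03) and 0.13 (0.05 to 0.21), so the list had no shared direction. Over all 79 genes the sum was at 0.04 at 1 month and -0.0021 at 2 months.

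Fibroblast-like and endothelial-like cells had block sums at or above those of WT. In fibroblast-like cells, 492 in knockout and 337 in WT at 1 month, the fatty acid block was at 1324 and 1308 CPM (0.02, -0.05 to 0.09) and the TCA block at 1271 and 1194 CPM (0.09, 0.02 to 0.16). At 2 months, with 179 and 136 such cells, the sums were 1316 and 1204 CPM (0.13, 0.04 to 0.22) and 1182 and 1155 CPM (0.03, -0.06 to 0.12). Of their members, 14 of 42 were lower at 1 month and 17 of 43 at 2 months, with 45.1% and 49.1% of all genes. In endothelial-like cells at 2 months, 95 in knockout and 74 in WT, the blocks were at 0.15 (0.03 to 0.27) and 0.11 (0.0026 to 0.22), and 11 of 39 members were lower, with 44.5% of all genes.

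Rod-like cells had fatty acid sums of 1202 CPM in knockout and 1114 CPM in WT at 1 month (0.11, -0.02 to 0.24) and of 1115 and 1194 CPM at 2 months (-0.10, -0.23 to 0.03). Their TCA sums were at -0.11 (-0.22 to -0.0064) and -0.08 (-0.20 to 0.04). Macrophage-like cells were at -0.05 and 0.03 for the fatty acid block, and for the TCA block at -0.06 (-0.16 to 0.04) and -0.17 (-0.34 to -0.00028). Mural-like cells at 2 months were at 0.02 (-0.13 to 0.17) and -0.02 (-0.15 to 0.11). At 1 month the fatty acid block was lower in T or NK-like cells (-0.11, -0.21 to -0.02) and in B-like cells (-0.12, -0.25 to -0.0019), and their TCA sums were at -0.05 and -0.02. Lower sums with intervals off 0 were therefore seen outside RPE-like cells too, at smaller or similar size, and no difference between classes was tested.

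The 1-month RPE-like sums moved with a few barcodes. When clusters were redrawn at resolution 0.6 or without the top 1% of doublet scores, 6 knockout barcodes of the red blood cell class, with 105321 UMIs, entered the RPE-like class under either setting, with 2 WT ones (54734 UMIs) at resolution 0.6 and 1 WT one (24611 UMIs) without the top doublet scores. The 1-month fatty acid ratio was -0.63 at resolution 0.6 and -0.70 without those scores, and 65.8% and 70.4% of all genes were then lower in the knockout. With unscaled components 2 knockout (6926 UMIs) and 3 WT (66041 UMIs) barcodes of the rod class entered, and the ratio was -0.32. Without RPE-like barcodes of at least 1000 CPM hemoglobin, 78 in knockout and 57 in WT, it was -0.41 at 1 month, and the TCA ratio was -0.23. Thinned to 1000 UMIs per cell, the 1-month ratios were -0.51 for the fatty acid block and -0.057 for the TCA block.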

How the data were processed

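RPE-choroid cells were profiled in 4 libraries, 1 per genotype and age. The deposited values are raw UMI counts per gene and barcode, whole numbers without normalization, per the file headers. The headers give Cell Ranger 6.0.2 at 1 month and 7.0.1 at 2 months. The submitters' processing notes instead list mm9, Seurat 4.0 and Cell Ranger 3.0. The sources used here do not say whether intronic reads were counted. Overlapping genes, such as Etfb with Gm45233, may share reads.

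Barcodes needed 300 genes or more and a mitochondrial share of 30% or less. This kept 1819 (knockout) and 1549 (WT) at 1 month, 1140 and 2047 at 2 months. Libraries held 12022513, 11194301, 16292472 and 23070271 UMIs in that order. Scrublet marked 26 of 6555 barcodes (0.397%), too few to count as having worked, and these were removed. The 6529 others were clustered with scanpy 1.11.5 (2000 variable genes without the members and related genes, 30 components, 15 neighbours, Leiden resolution 1) into 30 clusters. A cluster was named "X-like" when at least 3 markers were 4-fold above the median cluster and in at least 10% of its cells. The rule against the median cluster replaced one against all other cells after the clusters had been seen.

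Counts were summed per class and library, and classes with at least 30 cells were used. Genes needed at least 30 UMIs over the libraries compared. The ratio calculation was tested on simulated data. Members, lists and alternatives were chosen with earlier results of these data known. Genes named with all values were the highest of each role, those at or beyond 80% or 125% of WT the same way at both ages, and the 5 furthest apart per age with at least 100 UMIs. Other members are named with ratios, and Mpc1, Oxct1, Slc16a1 and Slc16a8 were chosen after their values were seen. So were Me1, Acad8, Acad9, Acad10, Acad11, Acad12 and Ivd. Some genes of the related lists are not reported here by name. Alternatives covered doublets, filters, Malat1, depth, free RNA, scaling, cluster mix, minimum counts, the added count and clustering. Sequences came from RefSeq and coordinates from GENCODE M21, matched by gene symbol and identifier.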

Additional observations from a re-analysis of the deposited data

Results flagged for a closer look

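Block sums of 2 other classes went the opposite way to those of RPE-like cells, with both counting intervals off 0. In fibroblast-like cells the knockout over WT ratio of the TCA block at 1 month was 0.089 (RPE-like -0.24), and that of the fatty acid block at 2 months was 0.13 (RPE-like -0.17). In endothelial-like cells at 2 months it was 0.15 for the fatty acid block and 0.11 for the TCA block (RPE-like -0.17 for each). Slc16a1, a transporter of lactate and ketone bodies, went opposite ways at the 2 ages in RPE-like cells, at 0.53 at 1 month and -0.31 at 2 months, though at 2 months Malat1-rich cells alone gave 0.33 and Malat1-poor cells alone -0.26. None of these differences was tested, since each group is 1 library.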

How the results depend on the processing

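The block sums, the member counts and, where they had enough UMIs, the 46 members and 9 related genes of RPE-like cells were recomputed under 17 alternatives listed at the outset and 2 chosen after seeing the data (without hemoglobin-rich barcodes, without the low-depth cluster). The fatty acid sum stayed below 0 in 19 of 19 at 1 month and in 18 of 19 at 2 months, and the TCA sum in 19 of 19 at each age. Not all of the 19 could change a block sum. The minimum counts do not enter it, and the larger added count barely alters it. Keeping the members for clustering left nearly the same RPE-like cells, 164 and 236 at 1 month and 607 and 1456 at 2 months (knockout, then WT). At 1 month the fixed cluster mix used only 1 cluster, so no mix was held fixed there. Leaving out the low-depth cluster left 35 knockout and 57 WT RPE-like cells at 1 month. These tallies are therefore no count of separate checks. Values outside the counting interval were, for the 1-month fatty acid sum, -0.70 (top 1% of doublet scores removed), -0.63 (resolution 0.6) and -0.32 (unscaled components). For the 1-month TCA sum they were -0.53, -0.47, -0.40 (Malat1-rich cells) and -0.057 (thinned). For 2 months they were 0.0048 (fatty acid sum, Malat1-rich cells), -0.13 (the same sum, thinned), -0.28 (trimmed-mean scaling, each block), and for the TCA sum -0.22 in Malat1-poor and -0.13 in Malat1-rich cells. Members lower at 1 month numbered 5 of 5 (Malat1-rich cells, where 53.7% of all genes were lower), 15 of 18 (thinned, 50.2%), 13 of 15 (at least 100 UMIs, 56.2%) and 16 of 23 (without the low-depth cluster, 53.5%). Under each of these settings fewer members had enough UMIs than in the main calculation. The cause of the shifts was not tested. The red blood cell and rod barcodes named above entered when the top 1% of doublet scores was removed, at resolution 0.6 and with unscaled components. Of 1782 single-gene values, 1625 stayed inside their interval, 147 moved outside it, and 10 of genes whose interval had lain off 0 changed sign: Acaa2 at 1 month to 0.057 (at least 1000 genes) and 0.12 (without the low-depth cluster), Acadvl to 0.033, Eci2 to 0.029, Pcx to -0.13, Idh3g to 0.22, Suclg1 to 0.13 and Slc16a1 to 0.33 (Malat1-rich cells, 2 months), Sdhd to 0.039 and Fh1 to 0.085 (thinned, 2 months). RPE-like cells were the highest class for 19 of 46 members in WT at 2 months, as with a mitochondrial limit of 15% or at least 1000 genes per barcode. The share over all genes was not computed for this count. No paired analysis was possible because each group is 1 library, and no replicate could be left out. Depth limits the 1-month ratios, where 9 of 46 members were under 30 UMIs.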
